A study of Mus musculus with 12 samples.

Results

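Fibroblast growth factor (FGF) signalling in mouse embryonic stem cells (mESCs) was followed through 10 genes chosen by name. They were the ligand genes Fgf4, Fgf5, Fgf8 and Fgf15, the receptor genes Fgfr1, Fgfr2 and Fgfr3, and Etv1, Etv4 and Etv5, which encode the PEA3 group of ETS transcription factors. All 10 were found, by Ensembl identifier, among the 39017 genes of the deposited count table, and all 10 were among the 17885 genes that passed the filter on low counts. Fgf5, Fgf8 and Fgfr2 passed that filter only through the serum libraries, so a fall of these 3 genes in 2i was in part built into their passing.

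An FGF binds a receptor tyrosine kinase together with heparan sulphate, and the receptor signals through adaptor proteins and RAS to the kinases RAF, MEK and ERK. ERK signalling raises transcription of the PEA3 factor genes and of inhibitors such as the Sprouty proteins and the ERK phosphatases, which then damp the pathway. In mESCs FGF4 is the ligand known for driving ERK and preparing cells to leave naive pluripotency, and Fgf5 is a standard marker of the primed epiblast that follows.

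Transcriptomes of 2 cell lines were compared in 2 media, with 3 replicate libraries for each of the 4 combinations, or 12 in all. J1 is a wild-type male mESC line. 3B3-3l is an mESC line that lacks both alleles of Dnmt3a and of Dnmt3b, the de novo DNA methyltransferase genes, and carries a Dnmt3b transgene under the constitutive CAG promoter and a second CAG-driven transgene for Dnmt3l, a cofactor of these enzymes, kept by blasticidin selection. Serum medium was DMEM with fetal calf serum and leukaemia inhibitory factor (LIF), whose dose is 500 U/ml in the labels and 1000 U/ml in the methods, a conflict that was not resolved. The 2i medium was a serum-free mixture with 1000 U/ml LIF, 1 µM of the MEK inhibitor PD0325901 and 3 µM of the GSK3 inhibitor CHIR99021. Every 2i culture thus held an inhibitor of a kinase that links FGF receptors to ERK, and the activity left was not analysed here. J1 cells in serum were kept on feeder cells that were depleted before use, and 3B3-3l cells on gelatin, so line and growth surface cannot be told apart in serum. The methods name feeders for J1 in serum culture and their removal for 2i conversion. In J1, medium and growth on feeders therefore cannot be told apart either. 3B3-3l stands for 1 engineered line, and its difference from J1 is not by itself a measure of the transgenes. The study used this line to keep DNA methylated in 2i.

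Each library held 37050652 to 44515395 estimated reads. Levels are given as CPM, counts scaled to library size after trimmed-mean (TMM) normalization. Dnmt3b was at 866 to 927 CPM in 3B3-3l serum and 914 to 936 CPM in 3B3-3l 2i, and in J1 at 404 to 427 CPM in serum but 41 to 47.2 CPM in 2i. Dnmt3a was at 166 to 167 CPM in J1 serum and 38.9 to 44.5 CPM in J1 2i, and at 29.4 to 34.3 CPM and 4 to 5.07 CPM in 3B3-3l, so the disrupted gene still had reads. All 11 matched mESC markers were at 1 CPM or more in each group. The summed level of 15 fibroblast markers was 92.7 to 101 CPM in J1 serum, 129 to 149 CPM in 3B3-3l serum, 47.9 to 49 CPM in J1 2i and 33.5 to 34.8 CPM in 3B3-3l 2i, with Lum at 0 in J1 serum and Lum and Dcn at 0 in both 2i groups. Of 11 tested, 10 were called lower in 2i in each line, and 1 was called higher in J1. Of all genes, 32.9% were called lower in 2i in J1 and 32.7% in 3B3-3l. The sum of the fibroblast markers was higher in serum, and there higher in the gelatin-grown line than in the feeder-grown one. Its part in the serum results was not tested.

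Per kilobase of effective transcript length, the scale on which different genes can be compared, Etv5 had the highest level of the 10 genes in every group and Fgf4 the second highest. Etv5 stood at 121 ± 2.8 (SD, n = 3) CPM per kb in J1 serum, 79.7 ± 2.69 in J1 2i, 129 ± 1.12 in 3B3-3l serum and 137 ± 1.43 in 3B3-3l 2i. Fgf4 stood at 56.7 ± 1.73, 65.3 ± 0.488, 74.4 ± 3.28 and 71.5 ± 0.402 CPM per kb in the same order. Fgfr1 and Etv4 came next in every group, with overlapping ranges in J1 serum and in 3B3-3l 2i. Below them, Fgf15 led the rest in both serum groups and Etv1 in both 2i groups. In 2i the lowest places were held by Fgf15, Fgf8, Fgfr2 and Fgf5, all under 1 CPM per kb, and neighbours among them overlapped except for Fgf15 above Fgfr2 in J1 and Fgfr2 above Fgf5 in 3B3-3l.

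**Figure D1:**
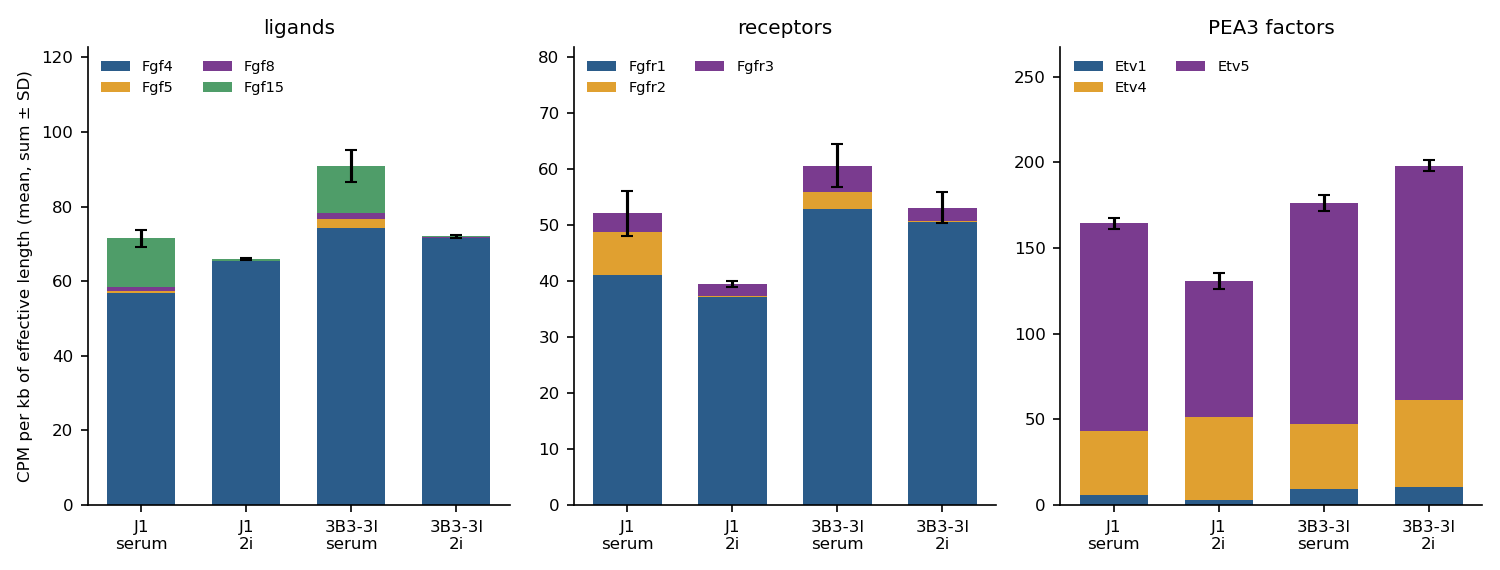
Levels per kilobase of effective transcript length (CPM per kb) of the ligand, receptor and PEA3 genes, stacked within each role, as group means of 3 libraries. Error bars are the SD of the summed level over libraries. Fgf4, Fgfr1 and Etv5 make up most of each bar, and the Fgf15 and Fgfr2 segments are seen in serum and are too thin to see in 2i.

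Shares within each role are over the chosen genes alone, and other ligand genes such as Fgf17 and Fgf10 are left out. Fgf4 made up 79.4% ± 1.75 of the summed level of the 4 ligand genes in J1 serum and 99% ± 0.293 in J1 2i, and 81.8% ± 0.214 and 99.2% ± 0.0643 in 3B3-3l (SD, n = 3), where its own level was not higher in 2i. Fgfr1 made up 78.7% ± 1.33 of the 3 receptor genes in J1 serum and 94.3% ± 0.611 in J1 2i, and 87.1% ± 0.3 and 95.2% ± 0.147 in 3B3-3l. The summed PEA3 level was 165 ± 3.24 CPM per kb in J1 serum and 131 ± 4.49 in J1 2i, but 176 ± 4.44 in 3B3-3l serum and 198 ± 3.24 in 3B3-3l 2i.

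Moving from serum to 2i changed most of the 10 genes in each line. In J1, 7 genes were lower and 2 higher at an adjusted p under 0.05 (edgeR quasi-likelihood test, Benjamini-Hochberg over all genes tested), and Fgfr1 was not called. Of all genes tested, 32.9% were called lower and 33.2% higher in that comparison, 66.1% together, so a call by itself was common. In 3B3-3l, 5 of the 10 genes were lower and 2 higher, against 32.7% called lower and 32.7% called higher of all genes, 65.4% together. The median log2 fold change of the 10 genes was -0.69 in J1 and -0.45 in 3B3-3l, while that of all genes was 0.01 in both. Both medians and both counts of lower genes include Fgf5, Fgf8 and Fgfr2, which passed the low-count filter only through serum libraries. Of the 7 genes that passed in both media, Fgf15, Fgfr3, Etv1 and Etv5 were called lower in J1, and only Fgf15 and Fgfr3 in 3B3-3l. At a further requirement of a 2-fold change, the called genes were 4 in each line, namely Fgf5, Fgf8, Fgf15 and Fgfr2, all lower, where 14.5% of all genes were called lower by that much in J1 and 16.1% in 3B3-3l. Of these 4, only Fgf15 passed the low-count filter in both media. The values are from bulk RNA, in which fewer expressing cells and less RNA per cell cannot be told apart.

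**Figure D2:**
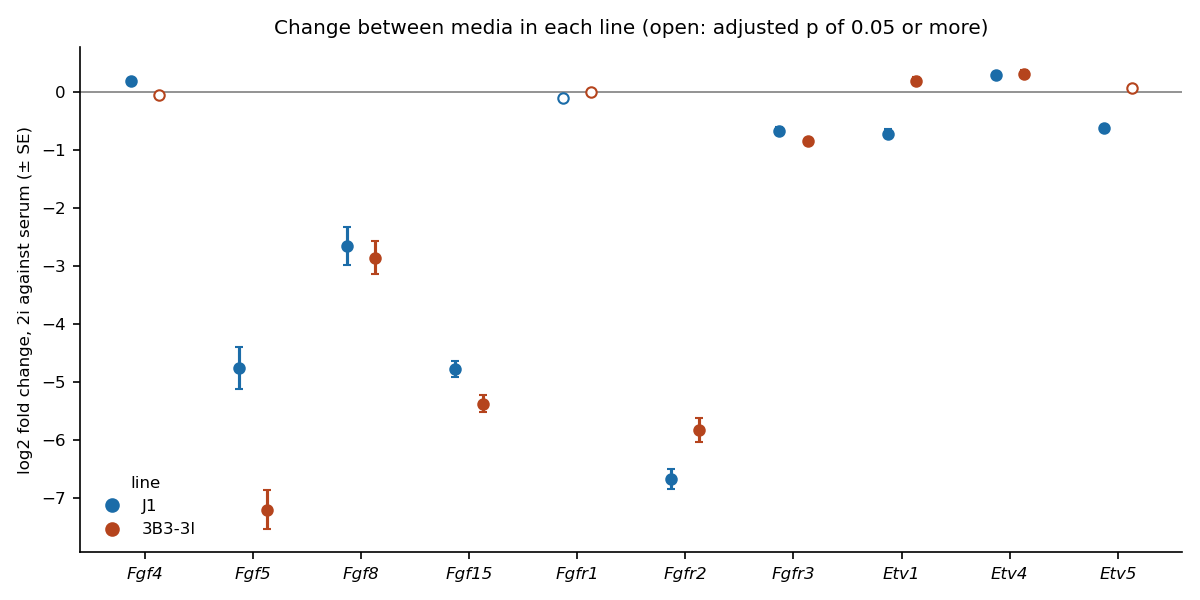
Log2 fold change of each gene in 2i against serum, with its standard error, in J1 (blue) and 3B3-3l (red). Filled points have an adjusted p under 0.05. Fgf5, Fgf8, Fgf15 and Fgfr2 lie between -2.65 and -7.20 in both lines, and Etv1 and Etv5 lie below zero in J1 and at or above it in 3B3-3l.

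Fgf4 encodes the autocrine ligand of mESCs. In J1 it was at 159, 160 and 168 CPM in serum and at 185, 187 and 187 CPM in 2i, and in 3B3-3l at 202, 216 and 218 CPM in serum and 204, 205 and 206 CPM in 2i. The J1 ranges did not overlap between media and those of 3B3-3l did. In log2 units Fgf4 rose by 0.20 ± 0.04 (SE) in J1 2i (edgeR adjusted p = 0.000794), and its difference in 3B3-3l was -0.05 ± 0.04 (adjusted p = 0.323). The line effects were 0.39 ± 0.04 in serum (adjusted p = 5.05e-06) and 0.14 ± 0.04 in 2i (adjusted p = 0.0172), with 3B3-3l higher in both. The 2i line effect had an adjusted p of 0.0971 without 3B3-3l 2i replicate 2 and 0.0527 without replicate 3, and was not called with no filter (0.106) or only the 6 libraries compared (0.0562). With at least 10 counts required in every library the 3B3-3l media difference of -0.11 was called (adjusted p = 0.0352). The 2i effects of the lines differed by -0.25 ± 0.06, 3B3-3l minus J1 (adjusted p = 0.00521).

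Fgf5 encodes the ligand that marks the primed epiblast. It was at 1.19, 1.66 and 1.79 CPM in J1 serum and at 4.7, 5.23 and 5.69 CPM in 3B3-3l serum. In 2i it was held by 1, 1 and 5 counts per library in J1 and by 2, 1 and 1 counts in 3B3-3l. The serum groups did not overlap with each other or with 2i, and the 2i groups overlapped. In counts scaled by library size, the serum level was 28.7 times the 2i level in J1 (95% exact counting interval 13.7 to 72.3, 188 against 7 counts) and 161 times in 3B3-3l (62.6 to 593, 621 against 4 counts). Fgf5 was 3.34-fold higher in 3B3-3l than in J1 in serum, a log2 difference of 1.74 ± 0.18 (edgeR adjusted p = 2.39e-06). The difference of the 2i effects was -2.44 ± 0.85 (adjusted p = 0.037). That call rested on few counts: without J1 2i replicate 3, which held 5 of the 7 counts, the value was -1.29 (adjusted p = 0.487), and the adjusted p was 0.0808 without 3B3-3l 2i replicate 2, 0.0714 without 3B3-3l 2i replicate 3 and 0.0524 without 3B3-3l serum replicate 2. The -2.44 is the line difference in 2i, -0.70 ± 0.80 and not called (adjusted p = 0.511), less the 1.74 in serum.

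The windows before the starts of these 2 ligand genes are shown because Fgf5 fell in 2i and Fgf4 did not, and both starts lie in CpG-dense sequence, whose methylation was not analysed here. The 250 bases before the RefSeq start (GRCm38.p6) are printed 5′ to 3′ on the gene's strand, with CG dinucleotides in capitals. The windows are chr7:144861136-144861385 for Fgf4 and chr5:98253934-98254183 for Fgf5, both on the plus strand.
Fgf4: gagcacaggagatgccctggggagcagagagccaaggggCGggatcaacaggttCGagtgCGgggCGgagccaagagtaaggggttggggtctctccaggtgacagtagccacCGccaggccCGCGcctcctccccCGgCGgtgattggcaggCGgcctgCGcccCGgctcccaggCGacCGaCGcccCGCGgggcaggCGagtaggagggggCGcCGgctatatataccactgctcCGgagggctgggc
Fgf5: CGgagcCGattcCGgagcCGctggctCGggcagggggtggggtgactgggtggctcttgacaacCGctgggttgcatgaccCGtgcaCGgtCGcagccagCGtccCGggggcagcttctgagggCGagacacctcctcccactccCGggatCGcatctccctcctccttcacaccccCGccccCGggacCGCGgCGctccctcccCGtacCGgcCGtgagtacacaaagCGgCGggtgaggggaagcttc
With the 50 bases after the start included, the Fgf4 window held 28 CG and the Fgf5 window 29, against a median of 7 over 32851 RefSeq windows of 300 bases. These counts were above 85.8% and 87.1% of those windows. Their GC content was 69.7% and 68.3%.

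Fgf8 encodes a ligand of gastrulation and patterning. In J1 Fgf8 stood at 0.759, 0.764 and 0.868 CPM in serum and 0.0459, 0.16 and 0.171 CPM in 2i, and in 3B3-3l at 1.22, 1.37 and 1.51 CPM in serum and 0.162, 0.168 and 0.232 CPM in 2i. Each serum group lay above both 2i groups. The serum level was 6.41 times the 2i level in J1 (95% exact counting interval 3.75 to 11.7) and 7.31 times in 3B3-3l (4.71 to 11.9). In serum it was higher in 3B3-3l by 0.77 ± 0.23 in log2 (edgeR adjusted p = 0.0137), a call lost without 3B3-3l serum replicate 1 (adjusted p = 0.0549), without J1 serum replicate 1 (0.0501) and with length offsets (0.0588). The difference of its 2i effects was -0.20 ± 0.51 (adjusted p = 0.80), an error too wide to detect a difference of that size.

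Fgf15 encodes an endocrine-type FGF that mESCs also transcribe. Serum libraries held 19.3, 21.3 and 23.8 CPM of Fgf15 in J1 and 19.1, 21.6 and 21.8 CPM in 3B3-3l, and 2i libraries 0.62, 0.775 and 0.951 CPM in J1 and 0.413, 0.433 and 0.649 CPM in 3B3-3l. The serum groups overlapped with each other and lay far above 2i. Fgf15 fell by 4.78 ± 0.14 in log2 in J1 (edgeR adjusted p = 1.09e-13) and by 5.37 ± 0.15 in 3B3-3l (adjusted p = 5.55e-14). In 2i it was lower in 3B3-3l, with a log2 difference of -0.63 ± 0.24 (adjusted p = 0.0438), although the ranges overlapped, and this call was lost without any 1 of 3B3-3l 2i replicates 1 and 3 and J1 2i replicates 1 and 3 (adjusted p = 0.139, 0.141, 0.0864 and 0.178) and with only the 6 libraries compared (0.0731). The difference of the 2i effects was -0.59 ± 0.26 (adjusted p = 0.094), and it was called without 3B3-3l 2i replicate 2 (adjusted p = 0.0362) or without J1 serum replicate 1 (0.0469). A long noncoding RNA gene, Gm26793, overlaps Fgf15 in RefSeq. Its strand was not compared, and whether it changed the reads assigned to Fgf15 was not tested.

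Fgf4 and Fgf15 lie close together, with Fgf3, on chromosome 7 (GRCm38.p6). Fgf3 spans chr7:144838612-144843348, Fgf4 chr7:144861386-144865245 and Fgf15 chr7:144896532-144900953. Fgf3, which was singled out for its position after its values were seen, went in J1 from 1.69 to 2.1 CPM in serum to 2.98 to 3.71 CPM in 2i, a rise of 0.83 ± 0.14 in log2 (edgeR adjusted p = 9.94e-05). In 3B3-3l its difference was 0.23 ± 0.14 (adjusted p = 0.143). Within this stretch, then, 2 ligand genes rose in J1 2i and the third, Fgf15, fell.

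**Figure D3:**
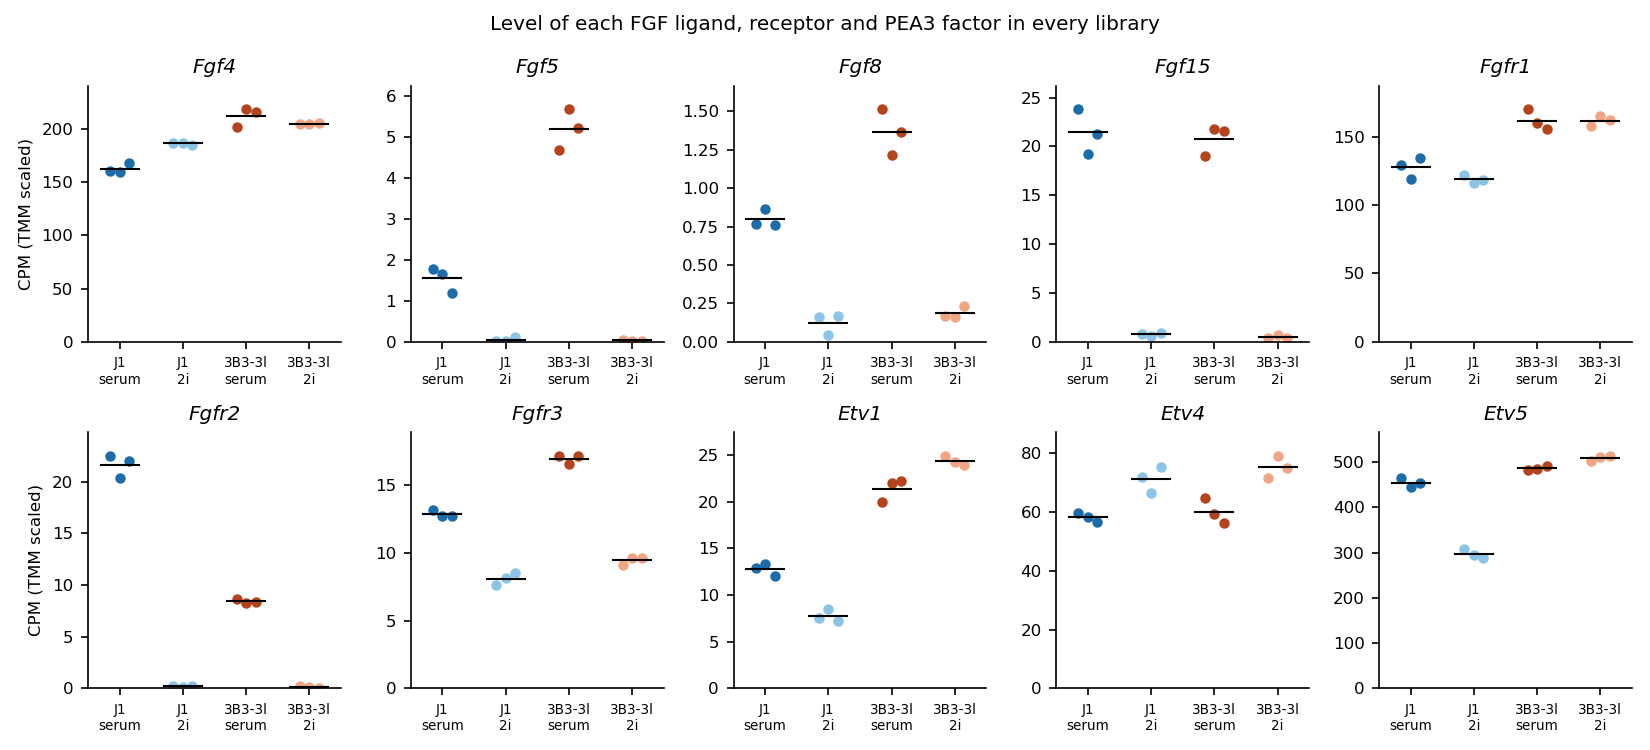
Level of each gene in CPM after TMM scaling, 1 point per library and a line at the mean of 3 libraries, for J1 and 3B3-3l in serum and 2i. Each panel starts at 0 and has its own scale. Fgf5, Fgf8, Fgf15 and Fgfr2 drop close to 0 in 2i in both lines, Etv5 drops in J1 2i only, and Etv1 is lowest in J1 2i.

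Of the receptors, Fgfr1 encodes the main FGF receptor of naive cells. The Fgfr1 level was 119, 129 and 134 CPM (J1) and 155, 160 and 170 CPM (3B3-3l) in serum, and 117, 119 and 122 CPM (J1) and 158, 162 and 165 CPM (3B3-3l) in 2i. The media overlapped within each line, and the lines did not overlap in either medium. The 2i effect was -0.10 ± 0.05 in J1 (edgeR adjusted p = 0.103) and 0.00 ± 0.05 in 3B3-3l (adjusted p = 0.989). Leaving out J1 serum replicate 2 brought the J1 value to -0.15, which was called (adjusted p = 0.0217), as was -0.12 with at least 10 counts in every library (0.0412). Fgfr1 was higher in 3B3-3l by 0.34 ± 0.05 in serum (adjusted p = 9.31e-05) and by 0.44 ± 0.05 in 2i (adjusted p = 4.78e-06). In RefSeq 2 long noncoding RNA genes overlap Fgfr1.

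Fgfr2 encodes the receptor that is known to mark primitive endoderm and trophectoderm precursors. In J1 Fgfr2 stood at 20.4, 22 and 22.5 CPM in serum and 0.138, 0.228 and 0.268 CPM in 2i, and in 3B3-3l at 8.22, 8.4 and 8.61 CPM in serum and 0.0516, 0.116 and 0.265 CPM in 2i. No serum library of one line overlapped with the other line, and the 2i groups overlapped. The serum level was 103 times the 2i level in J1 (95% exact counting interval 70.5 to 156) and 57.7 times in 3B3-3l (36.3 to 97.7). Fgfr2 was the only one of the 10 genes called lower in 3B3-3l in serum, by 2.57-fold, a log2 difference of -1.36 ± 0.10 (edgeR adjusted p = 1.16e-07). The difference of the 2i effects, 0.84 ± 0.46, was not called (adjusted p = 0.17), but was without 3B3-3l 2i replicate 3 (1.21, adjusted p = 0.0413), which held 2 Fgfr2 counts. Beside it, of 9 primitive endoderm markers 2 were called lower and 3 higher in J1 2i, against 32.9% and 33.2% of all genes. In 3B3-3l 2i 5 of these markers were lower and none higher, against 32.7% of all genes each way. The summed level of the 9 markers was 153 to 173 CPM in J1 serum and 187 to 206 CPM in J1 2i. In 3B3-3l it was 193 to 199 CPM in serum and 149 to 151 CPM in 2i. Most of that sum was Lama1, with means of 109, 180, 137 and 135 CPM in the same order, whereas Col4a1 had means of 51.3, 10.1, 50.8 and 7.57 CPM. The part of these markers in the Fgfr2 result was not tested.

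Fgfr3 encodes the receptor that was below Fgfr1 per kilobase in every group and above Fgfr2 in all but J1 serum. Serum libraries held 12.7, 12.7 and 13.2 CPM of Fgfr3 in J1 and 16.5, 17.1 and 17.2 CPM in 3B3-3l, and 2i libraries 7.63, 8.1 and 8.54 CPM in J1 and 9.09, 9.59 and 9.64 CPM in 3B3-3l. None of the 4 groups overlapped. Fgfr3 fell by 0.67 ± 0.06 in log2 in J1 (edgeR adjusted p = 1.65e-07) and by 0.84 ± 0.06 in 3B3-3l (adjusted p = 6.84e-09). It was higher in 3B3-3l by 0.40 ± 0.06 in serum (adjusted p = 0.000116) and by 0.22 ± 0.07 in 2i (adjusted p = 0.0113), the latter with an adjusted p of 0.0654 without 3B3-3l 2i replicate 2 and 0.0539 without J1 2i replicate 1, and not called with length offsets (0.106), no filter (0.0633) or only the 6 libraries compared (0.0572).

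The receptors use either of 2 alternative exons for the end of the third immunoglobulin loop, IIIb or IIIc, a choice that sets which FGFs bind. FGF4 is known to signal through IIIc forms. Transcripts were assigned to a form by the exon they hold in GENCODE M1. In J1 serum, transcripts with the IIIc exon held 59.3% ± 2.05 (SD, n = 3) of the estimated Fgfr2 reads and those with the IIIb exon 7.63% ± 2.23, the rest being assigned to transcripts with neither. In 3B3-3l serum the shares were 67.4% ± 16.8 and 7.3% ± 4.52. The IIIc form led in each of the 6 serum libraries, with 56.5% to 86.7%. In 2i, Fgfr2 had 2.01 to 11.1 estimated reads per library, too few for a share. Fgfr1 was likewise a IIIc receptor, at 87.1% ± 0.324 of its reads in J1 serum, 87% ± 1.16 in J1 2i, 85.5% ± 0.473 in 3B3-3l serum and 88.4% ± 1.12 in 3B3-3l 2i, and transcripts with only the IIIb exon took at most 0.537% in any library. For Fgfr3 the estimated IIIc share ran from 17.5% to 100% over the J1 2i libraries alone, so the transcripts of this gene were not resolved.

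The PEA3 factors act at the end of the pathway. The Etv5 level was 445, 453 and 465 CPM (J1) and 482, 485 and 491 CPM (3B3-3l) in serum, and 288, 295 and 308 CPM (J1) and 502, 511 and 514 CPM (3B3-3l) in 2i. The J1 2i libraries stood apart below all others, and the other 3 groups lay close together without overlap. Etv5 fell by 0.61 ± 0.04 in log2 in J1 (edgeR adjusted p = 2.95e-09), and in 3B3-3l its difference was 0.07 ± 0.04 (adjusted p = 0.179). The lines differed by 0.10 ± 0.04 in serum (adjusted p = 0.0829) and by 0.78 ± 0.04 in 2i, 1.71-fold higher in 3B3-3l (adjusted p = 1.56e-09). The test of the difference of the 2i effects gave 0.68 ± 0.06 (adjusted p = 6.35e-07). Etv5 was thus lower in 2i in J1, and no fall was detected in 3B3-3l at the same standard error.

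Etv1 had a similar pattern at a lower level. In J1 Etv1 stood at 12, 12.9 and 13.4 CPM in serum and 7.24, 7.59 and 8.49 CPM in 2i, and in 3B3-3l at 19.9, 22 and 22.2 CPM in serum and 23.9, 24.3 and 24.9 CPM in 2i. No groups overlapped. Etv1 fell by 0.71 ± 0.07 in log2 in J1 (edgeR adjusted p = 4.34e-07) and rose by 0.19 ± 0.07 in 3B3-3l (adjusted p = 0.0206), the rise being lost without 3B3-3l 2i replicate 1 or 2 or 3B3-3l serum replicate 1 (adjusted p = 0.0626, 0.0794 and 0.0893) and with no filter (0.0502) or at least 10 counts in every library (0.0989). It was 1.68-fold higher in 3B3-3l in serum (adjusted p = 8.58e-07) and 3.14-fold higher in 2i (adjusted p = 1.46e-10). The 2i effects differed by 0.90 ± 0.10 (adjusted p = 6.6e-06).

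Etv4 was higher in 2i in both lines. Serum libraries held 56.6, 58.5 and 59.5 CPM of Etv4 in J1 and 56.3, 59.3 and 64.9 CPM in 3B3-3l, and 2i libraries 66.6, 71.8 and 75.3 CPM in J1 and 71.7, 74.9 and 79.2 CPM in 3B3-3l. The 2i libraries lay above the serum libraries in each line, and the lines overlapped in each medium. Etv4 rose by 0.29 ± 0.06 in J1 (edgeR adjusted p = 0.000616) and by 0.32 ± 0.06 in 3B3-3l (adjusted p = 0.000235). The difference of these effects was 0.03 ± 0.09 (adjusted p = 0.807). The 3 PEA3 genes thus did not move together between media in J1, and Etv4 took 23% ± 0.846 of their summed level per kilobase in J1 serum and 36.6% ± 2.94 in J1 2i.

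Between the lines, more of the 10 genes were higher in 3B3-3l than lower. In serum 6 were higher and 1, Fgfr2, was lower, against 21.5% and 17.2% of all genes tested (38.7% together). In 2i 5 were higher and 1, Fgf15, was lower, against 23% and 22.9% of all genes (45.9% together). The median log2 difference of the 10 genes was 0.36 in serum and 0.18 in 2i, and that of all genes 0.03 and 0.01. The test of the difference of the 2i effects called 4 of the 10 genes, Etv1 and Etv5 upward and Fgf4 and Fgf5 downward, where 16.3% of all genes were called upward and 18.3% downward, 34.7% together. The share of the members called, 4 of 10, was thus near that of all genes. With a 2-fold change required, 2 genes were called between the lines in serum, 1 in 2i and 1 for the difference of the 2i effects, against 4.58%, 8.09% and 8.22% of all genes. The 4 comparisons of 2 groups share libraries, so their counts are not independent of each other.

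The shares of the Etv5 transcripts were higher or lower by medium too. The difference was called in estimated reads, but in TPM no transcript could be called. In GENCODE M1, Etv5-001 has a first exon of 203 bases of its own, and Etv5-002 starts within the second exon of Etv5-001, 3205 bases further into the gene. The Etv5-002 share of the Etv5 TPM (transcript abundance scaled for length and depth) was 16.7%, 24.2% and 25% in J1 serum, 28.8%, 35.8% and 36.1% in J1 2i, 2.33%, 4.32% and 10.4% in 3B3-3l serum and 35.3%, 37.4% and 38% in 3B3-3l 2i. Each 2i library lay above each serum library. Averaged over the lines, the share was 21.4 percentage points higher in 2i (exact permutation test with media exchanged within lines, two-sided, p = 0.005, the smallest that its 400 arrangements can give). After adjustment over all 28318 transcripts compared, p was 0.0585, so the shift was not called. Every transcript at the smallest p had this adjusted value, so no shift of any size could be called in TPM. Whether the smallest p is called depends on how many of all transcripts reach it. None of the 22 member transcripts compared was called between media, as was none of all transcripts (0%), although 6262 of them had an unadjusted p under 0.05.

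With shares of estimated reads in place of TPM, 4 of 20 member transcripts were called between media, namely Etv5-001, Etv5-002, Etv4-003 and Etv1-002, against 10.1% of all transcripts. The 2 Etv5 transcripts hold nearly all reads of their gene, so their calls are not independent and stand for 1 shift. In reads, Etv5-002 went from 450 to 1838 per library in 3B3-3l serum to 6788 to 8107 in 3B3-3l 2i, while Etv5-001 went from 16610 to 19850 down to 13150 to 13930. In J1, Etv5-002 held 2682 to 4676 reads in serum and 3574 to 4668 in 2i, and Etv5-001 held 14030 to 14800 and 7700 to 9280. As estimated, the fall of Etv5 in J1 lay in Etv5-001, and in 3B3-3l the 2 transcripts changed in opposite directions. Whether the share shift itself differs between the lines was not tested. The transcripts share 10 exons with the same ends, and their reads were divided by the authors' quantifier, so the estimates rest on the few exons that differ. The transcript models are named as RefSeq in the methods while the deposited identifiers are Ensembl, so the structures given here may not be those the reads were assigned to. Between the lines, 0 of 22 member transcripts were called (0% of all transcripts, 2943 of which had an unadjusted p under 0.05). There too no transcript could be called after adjustment, even at the smallest p of 0.005, so that count shows nothing about the lines.

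**Figure D4:**
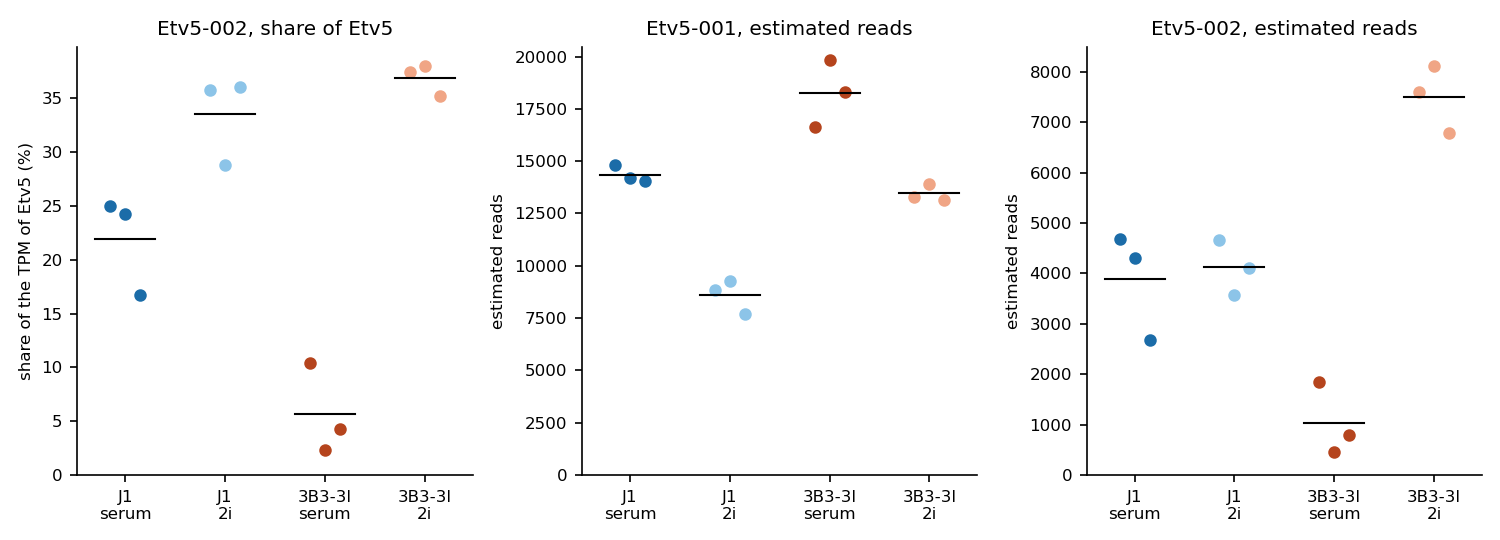
Share of the Etv5 TPM held by Etv5-002 (left, percent) and the estimated reads assigned to Etv5-001 (middle) and Etv5-002 (right), 1 point per library with a line at the mean of 3. The Etv5-002 share is 2.33% to 10.4% in 3B3-3l serum and 28.8% to 38% in the 2i libraries of both lines.

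Promoter windows of 300 bases were given by RefSeq for 6 of the 10 genes, 9 windows in all. The Etv5 window around the start nearest to Etv5-001 held 37 CG, more than 94.4% of all windows. The second Etv5 window held 19 CG, the Fgfr2 window 4, the windows of Etv1 12 and 3 and those of Fgfr3 26 and 30. No protein-coding GENCODE M1 transcript was found to start in the Fgfr2 window or the second Etv5 window. The motifs CCGGAAGT (ETS), TGACTCA (AP-1), CTTTGAT (TCF) and ATGCAAAT (octamer), searched on both strands, were in none of the 9 windows. Over all windows the first was in 3.89%, the second in 5.2%, the third in 3.73% and the last in 1.74%.

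For each of the 10 genes, the gene with the most similar pattern of log2 CPM over the 12 libraries was found among the 9981 tested genes whose highest group mean reached 10 CPM. Fgf15 paired with Actn3 (Pearson r = 0.998), Fgfr3 with Syt7 (0.995), Fgfr2 with Kcnk1 (0.993) and Fgf5 with Inhbb (0.992). Etv1 paired with Irak3 (0.992), Etv5 with Mtrr (0.991), Fgfr1 with Hdac6 (0.991), Fgf8 with Plaur (0.99), Etv4 with Atg7 (0.988) and Fgf4 with Tube1 (0.984). The 12 libraries form 4 groups, so these values mostly compare 4 group means. Within the 10 genes, Fgf15 and Fgfr2 were most alike (0.981). Next came Fgf5 with Fgf15 (0.962), Fgf8 (0.961) and Fgfr3 (0.961), and Fgf8 with Fgfr3 (0.96) and Fgf15 (0.928). Below these, Etv1 and Etv5 had 0.92 and Etv1 and Fgfr1 0.918, and Etv4 was opposite to Fgfr2 (-0.908).

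Around these genes, the inhibitors that ERK signalling is known to induce were mostly lower in 2i. Of 11 feedback inhibitors tested, 10 were lower in J1 2i and none higher, and 9 were lower and 1 higher in 3B3-3l 2i, where 32.9% and 32.7% of all genes were called lower, with medians of -0.82 and -0.78 in log2 against 0.01 for all genes. Dusp4, a nuclear ERK phosphatase, fell by 4.66 ± 0.11 in J1 and by 4.95 ± 0.10 in 3B3-3l (edgeR adjusted p = 1.15e-14 and 3.09e-15). Dusp6, the cytoplasmic ERK phosphatase, was at 38.8 to 39.6 CPM in J1 serum, 6.82 to 7.88 CPM in J1 2i, 36.7 to 38.2 CPM in 3B3-3l serum and 12.4 to 13.3 CPM in 3B3-3l 2i. It fell in both lines and was higher in 3B3-3l in 2i by 0.81 ± 0.06 (adjusted p = 7.8e-08), with no difference called in serum (adjusted p = 0.375), as for Etv5. The difference of its 2i effects was 0.88 ± 0.08 (adjusted p = 1.68e-06). Spry2, a Sprouty inhibitor of receptor signalling, fell by 0.38 ± 0.04 in J1 (adjusted p = 1.78e-06) and rose by 0.31 ± 0.04 in 3B3-3l (adjusted p = 1.21e-05), with a difference of 0.69 ± 0.06 (adjusted p = 9.32e-07). Spry1 went the other way, with a difference of -0.63 ± 0.11 (adjusted p = 0.000274). For the difference of the 2i effects, 3 of the 11 inhibitors were called upward, 3 downward and 5 not at all. Of all genes, 16.3% were called upward and 18.3% downward.

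The shares of the other pathway lists called between media are read against 66.1% of all genes in J1 and 65.4% in 3B3-3l. Of 20 adaptor and RAS-ERK genes tested, 8 were higher and 5 lower in J1 2i, and 7 were higher and 10 lower in 3B3-3l 2i. The J1 count was close to the share of all genes. Mapk3, which encodes ERK1, fell in both lines, by 0.74 ± 0.06 and 1.12 ± 0.06 (edgeR adjusted p = 1.21e-08 and 7.57e-11). In serum 13 of the 20 were higher in 3B3-3l and 1 was lower, with Sos2, a RAS exchange factor, up by 1.2 ± 0.07 (adjusted p = 4.32e-09) and the adaptor gene Grb2 lower, at -0.47 ± 0.05 (adjusted p = 1.34e-06). In 2i 5 were higher in 3B3-3l and 8 lower. Of all genes, 21.5% were called higher in 3B3-3l and 17.2% lower in serum, and 23% higher and 22.9% lower in 2i.

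Of the 14 other ligand genes, 6 passed the filter. In J1 2i, 2 were higher and 3 lower, and in 3B3-3l 2i 1 was higher and 3 lower. Fgf10, a ligand of IIIb receptors in branching organs, went in J1 from 0.542 to 0.771 CPM in serum to 9.8 to 11.4 CPM in 2i, a rise of 3.97 ± 0.14 in log2 (edgeR adjusted p = 9.88e-13), and rose by 2.76 ± 0.13 in 3B3-3l (adjusted p = 3.46e-11). Fgf17, which belongs to the Fgf8 subfamily, fell by 1.91 ± 0.09 and 2.43 ± 0.09. Among the 3 other receptor and co-receptor genes tested, 2 were lower and 1 higher in 2i in each line, and Fgfrl1, which encodes a receptor without a kinase domain, fell by 0.38 ± 0.07 in J1 and by 1.38 ± 0.08 in 3B3-3l. All 3 tested FGF homologous factors, intracellular proteins that do not bind FGF receptors, were called in each line, with 1 higher and 2 lower. The lower 2 include a gene with 1 count in each 2i group, which passed the low-count filter only through serum libraries. Its fall was thus in part built into its passing. Of all genes, 66.1% were called between media in J1 and 65.4% in 3B3-3l.

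Of 19 heparan sulphate genes, 8 were higher and 8 lower in J1 2i, and 6 were higher and 8 lower in 3B3-3l 2i, against 33.2% higher and 32.9% lower of all genes in J1 and 32.7% each way in 3B3-3l. The glypican gene Gpc4 rose by 1.43 ± 0.05 in J1 and by 0.94 ± 0.05 in 3B3-3l, and Gpc1 fell by 1.54 ± 0.07 and 2.78 ± 0.07 (edgeR adjusted p of at most 1.7e-10 for these 4 values). In serum 9 of the 19 were higher in 3B3-3l and none lower, against 21.5% higher and 17.2% lower of all genes. Of 19 other ETS factors, 7 were higher and 5 lower in J1 2i and 10 were higher and 6 lower in 3B3-3l 2i, counts that in J1 were near the share of all genes, with Elf4 up by 2.81 ± 0.08 and 2.38 ± 0.08 and Spic up by 2.28 ± 0.12 and 4.62 ± 0.13. Elk3 fell by 0.58 ± 0.09 in J1 and rose by 0.69 ± 0.08 in 3B3-3l (adjusted p = 3.46e-05 and 2.01e-06). The 2 tested genes for the degradation of PEA3 proteins, Rfwd2 and Det1, were not called between media in either line.

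**Figure D5:**
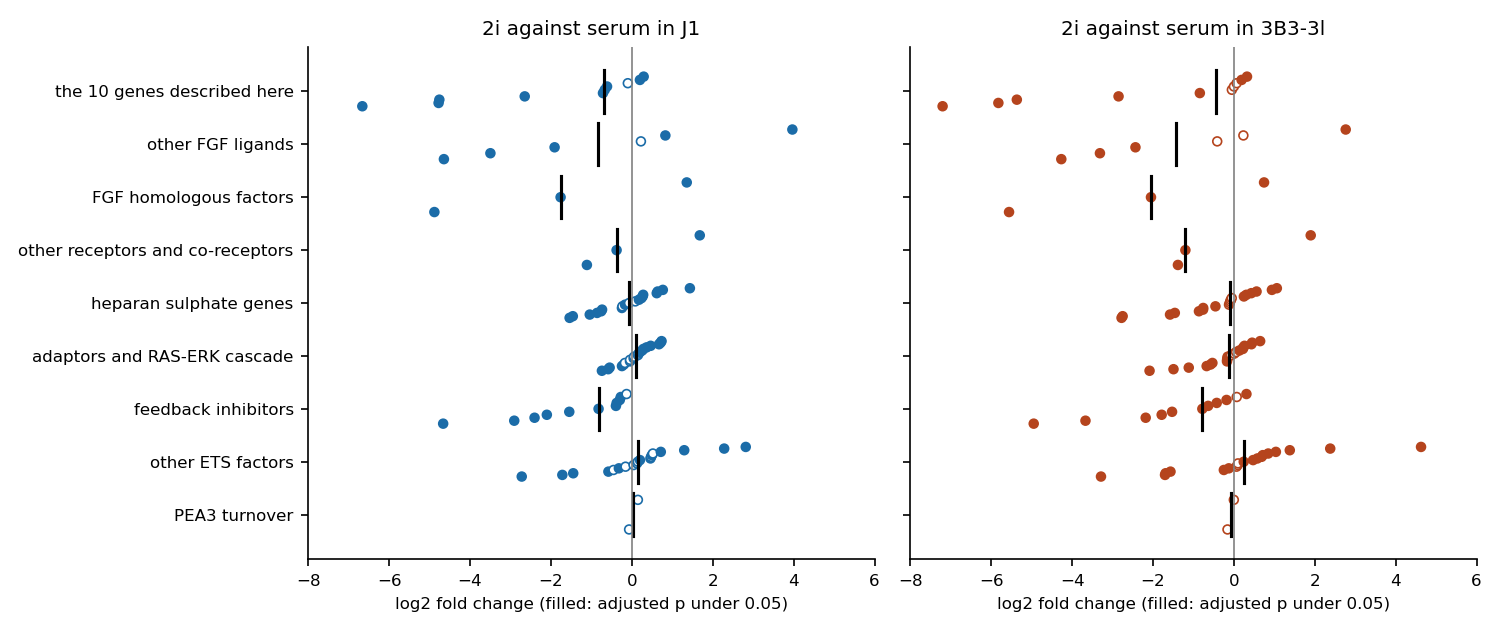
Log2 fold change in 2i against serum of every tested gene in each pathway list, in J1 (left) and 3B3-3l (right). Filled points have an adjusted p under 0.05 and the black bar is the list's median. Feedback inhibitors lie almost all below zero in both lines, while the cascade, heparan sulphate and ETS lists spread to both sides.

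Of 8 primed epiblast markers, 8 were called lower in J1 2i, against 32.9% of all genes. In 3B3-3l 2i 7 were lower and none higher, against 32.7% of all genes each way. Without Dnmt3a and Dnmt3b, which the lines differ in by design, the summed level of the 6 other markers was 119 to 124 CPM in J1 serum, 28.3 to 30.4 CPM in J1 2i, 131 to 145 CPM in 3B3-3l serum and 34.6 to 36.5 CPM in 3B3-3l 2i. Between the lines the members went both ways, with means in J1 2i and 3B3-3l 2i of 2.8 and 13.6 CPM for Otx2 but 20.6 and 13.1 CPM for Zic2. Of 7 primitive streak markers tested, 4 were higher and 2 lower in 2i in each line, where 32.7% to 33.2% of all genes were called each way. Their summed level, over all 8 markers of the list, was 5.59 to 6.8 CPM in J1 serum, 39.5 to 45.6 CPM in J1 2i, 7.06 to 7.72 CPM in 3B3-3l serum and 28.7 to 30.1 CPM in 3B3-3l 2i. T and Eomes made up most of the sum in 2i, at means of 13.2 and 28.1 CPM in J1, while Wnt3 went from 1.16 to 0.366 CPM there. The summed level of 7 trophoblast markers was 101 to 113 CPM in J1 serum, 114 to 141 CPM in J1 2i, 184 to 227 CPM in 3B3-3l serum and 140 to 150 CPM in 3B3-3l 2i. The part of these markers in the results was not tested.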

How the data were processed

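Poly(A) RNA of 12 libraries, 3 for each of 4 groups, was sequenced from strand-marking libraries. The authors estimated transcript abundance with Sailfish against mm10 transcript models, named as RefSeq although the deposited identifiers are Ensembl, and deposited, per library, TPM (length- and depth-scaled transcript abundance), estimated read counts and effective lengths. They summed these to genes with tximport, and the deposited gene table holds estimated counts, not normalized. Whether the 3 replicates were grown separately is stated only as biological replication, and 2 sequencing pools were used whose members are not given in the sources used here. Groups came from the sample titles.

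Estimated counts were rounded. Genes were filtered with filterByExpr, scaled by TMM (factors 0.97 to 1.04) and tested with the edgeR quasi-likelihood test (edgeR 4.0.16, R 4.3.3), with 1 coefficient per group over all 12 libraries. P-values were adjusted by Benjamini-Hochberg over 17885 genes and a gene was called at an adjusted p under 0.05. Standard errors of log2 fold changes were worked back from the test, as the absolute change divided by the square root of its F statistic. The test was checked on simulated data. CPM are after TMM scaling. Levels between genes were divided by effective length. Count ratios carry exact 95% binomial intervals, which cover counting error only. Transcript shares were taken for transcripts with a mean share of at least 5% in some group, in genes with at least 10 reads in every library, and tested by exact permutation.

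The 10 genes and the pathway and marker lists were chosen with earlier results of these data known. Symbols came from the annotation, and 7 list genes were not matched to a single identifier and are not counted. From each other list, the called genes with the highest and lowest change and at least 10 CPM in some group could be named in each comparison. Fgf3 and, outside its comparison, Dusp6 were named after their values were seen. The single genes named from the marker lists, such as Lama1 and Otx2, fall outside this rule and were named with their values known. Transcript names and exon structures, for the receptor forms and Etv5, came from GENCODE M1 by Ensembl identifier, promoter windows and gene positions from RefSeq GRCm38.p6. Alternatives changed the scaling, filter, tool (DESeq2 1.42.0), libraries fitted, replicate block, length offsets, 2-fold threshold and share unit, and left out each library.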

Additional observations from a re-analysis of the deposited data

Results flagged for a closer look

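The effect of 2i differed between the lines, by a test of that difference, for 4 of the 10 genes, where 34.7% of all genes were called in that test. For Etv5 the log2 effect in 3B3-3l minus that in J1 was 0.68, and for Etv1 it was 0.90, since both genes fell in J1 2i and did not fall in 3B3-3l 2i. For Fgf4 it was -0.25, the gene having risen in J1 2i from a lower serum level. For Fgf5 it was -2.44, a value that rests on 7 counts in J1 2i and 4 in 3B3-3l 2i and was not called without J1 2i replicate 3 (adjusted p = 0.487) or with the replicate number as a block (0.0526). In 3B3-3l, line, engineering history and, in serum, growth surface go together and cannot be told apart. In J1, medium and growth on feeders go together, so the difference of the 2i effects cannot tell them apart.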

How the results depend on the processing

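Of 372 member fold changes recomputed under other settings with every library kept, 330 kept their direction and side of the threshold, 32 lost and 2 gained a call, and 8 turned. Of 360 that left out 1 library, 326 kept both, 17 lost and 4 gained a call, and 13 turned. Each turned value had not been called. A 2-fold threshold left 4 called members in J1 2i against serum, 4 in 3B3-3l 2i against serum, 2 between lines in serum, 1 between lines in 2i and 1 for the difference of the 2i effects. With at least 10 counts in every library, which removes Fgf5, Fgf8 and Fgfr2, 4 were called in 3B3-3l 2i against serum and 4 between lines in serum. With only the 6 libraries compared, 3 were called between lines in 2i. Transcript shares taken from estimated reads gave 4 calls between media. The cause of these moves was not tested where fewer genes or samples do not give it.

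For Fgfr1 in 3B3-3l, 2i against serum, the log2 fold change was -0.0090 with DESeq2 size factors, -0.0096 with no filter, -0.0089 with the DESeq2 Wald test, -0.0067 with the 6 libraries compared, -0.055 with at least 10 counts in every library and -0.065 with length offsets, against 0.00 as reported. The difference of the 2i effects was 0.16 for Fgf8 with length offsets and -0.00096 for Etv4 with at least 10 counts in every library. With 1 library left out, values ranged from -0.040 to 0.040 for Fgfr1 in 3B3-3l, from -0.12 to 0.039 for Fgf15 and from -0.011 to 0.093 for Etv4 between lines in serum, from -1.07 to 0.45 for Fgf5 between lines in 2i, and for the difference of the 2i effects from -0.60 to 0.069 for Fgf8 and from -0.031 to 0.091 for Etv4. The counts of called members then ranged from 9 to 10 in J1, 6 to 7 in 3B3-3l, 6 to 7 between lines in serum, 4 to 6 between lines in 2i and 3 to 5 for the difference, and transcript share calls stayed at 0, where the fewer arrangements allow no smaller p.

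Replicate numbers did not pair the libraries, with same-number correlations of -0.118 to 0.0167 and no library closest to its own number. With the replicate number as a block, the called members were 9 in J1, 7 in 3B3-3l, 7 between lines in serum, 5 between lines in 2i and 3 for the difference, with Fgf5 at an adjusted p of 0.0526 for the difference and Fgf15 at 0.0605 between lines in 2i.

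The limits are these. Fgf5, Fgf8 and Fgfr2 rest on 1 to 11 counts per library in 2i, and 3 counts correspond to 0.0674 to 0.081 CPM. With 3 libraries a group, p-values measure the spread between these libraries. The transcript estimates carry no error of their own here, and protein, phosphorylated ERK and DNA methylation were not analysed here.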
